A study of Mus musculus with 6 samples.

Results

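The 7 genes described here, *Tet1*, *Tet2*, *Tet3*, *Dnmt1*, *Dnmt3a*, *Dnmt3b* and *Dnmt3l*, encode the mouse TET enzymes and DNA methyltransferase family, proteins that remove or place DNA methylation or assist in placing it. They are 7 of 22380 annotated protein-coding genes, and were taken by name. Every OCT4- or NANOG-bound region within 20 kb of their gene bodies was collected, which gave 27 of the 23767 distinct regions of the series. The collection used the genes' names and the positions of regions, not whether a region was kept or lost. The genes themselves were chosen with earlier results of these data known.

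OCT4 and NANOG ChIP-Seq was performed in E-GFPd1 ESCs, which the labels call Esrrb-2a-GFPd-IBIH. This is 1 reporter line of E14Tg2a mouse embryonic stem cells, with a destabilised GFP expressed from *Esrrb*, grown in serum and LIF. Fixed cells were sorted by GFP into the brightest 10% (Esrrb-GFP high), the 15% of cells just above the negative gate (Esrrb-GFP medium) and Esrrb-GFP negative cells, so all 3 fractions carried the same reporter and came from the same kind of culture. The labels name the negative fraction both as Esrrb-low and as Esrrb-Negative. There was 1 library per factor and fraction, 6 in all, each made from 3 pooled ChIPs, so no spread between replicates could be given and no fraction was compared with a test. The OCT4 lists held 12449 regions in high, 14464 in medium and 10369 in negative cells. The NANOG lists held 9425, 4729 and 286 in the same order. They give positions without scores or read numbers, so the sequencing depth is unknown. Expression was not analysed here, and the identity of the sorted cells could not be checked from the lists.

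Overlapping peaks had been merged across datasets by the authors, who took a peak as lost from a fraction in which under 50% of its highest depth-normalized signal remained. A region missing from a list is called lost or not bound below in that sense only, and may have carried signal under that limit. Kept or bound likewise means listed, not an unchanged level of binding. The study's 2 classes are drawn from regions that held both factors in Esrrb-GFP high cells. Class I regions have neither factor in Esrrb-GFP negative cells. Class II regions have OCT4 and not NANOG there. The study showed *Tet2* as its example of Class I, so loss at *Tet2* was already reported. The ranges in parentheses beside shares are 95% Wilson intervals. They reflect counting error over regions alone, since neighbouring regions of a gene are not independent and regions are not replicates.

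DNA methylation in mammals lies mostly on the cytosine of CpG dinucleotides. The TET proteins TET1, TET2 and TET3 are dioxygenases that oxidise methylcytosine to hydroxymethylcytosine and beyond, and so start its removal. DNMT1 copies methylation onto the new strand after replication, DNMT3A and DNMT3B place it on unmethylated sites, and DNMT3L is a cofactor of these de novo enzymes without catalytic activity. Naïve pluripotent cells and the cells that follow them differ widely in their methylation, and OCT4 and NANOG are core factors of the pluripotency network.

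Bound regions lay near 6 of the 7 genes, against 46.4% of all protein-coding genes. *Tet1* had 10 regions and *Tet2* had 7, while *Tet3*, *Dnmt3a* and *Dnmt3l* had 2 each, *Dnmt3b* had 4 and *Dnmt1* had none. Of the 27 regions, 23 lay in introns, 15 of them in intron 1, and 4 lay upstream of a gene. None overlapped an exon or UTR of the transcripts annotated for these 7 genes, and 1, in *Tet1*, overlapped an annotated U6 small RNA gene. Class I regions were found at *Tet1*, *Tet2*, *Tet3* and *Dnmt3b*, which are 4 of the 7 genes against 6.97% of coding genes. Class II regions were found at *Tet3*, *Dnmt3b* and *Dnmt3l*, 3 of the 7 against 5.02%. *Tet3* and *Dnmt3b* had both, 2 of the 7 against 1.04%. Long genes have wider windows, and these shares were not adjusted for gene length.

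**Figure D1:**
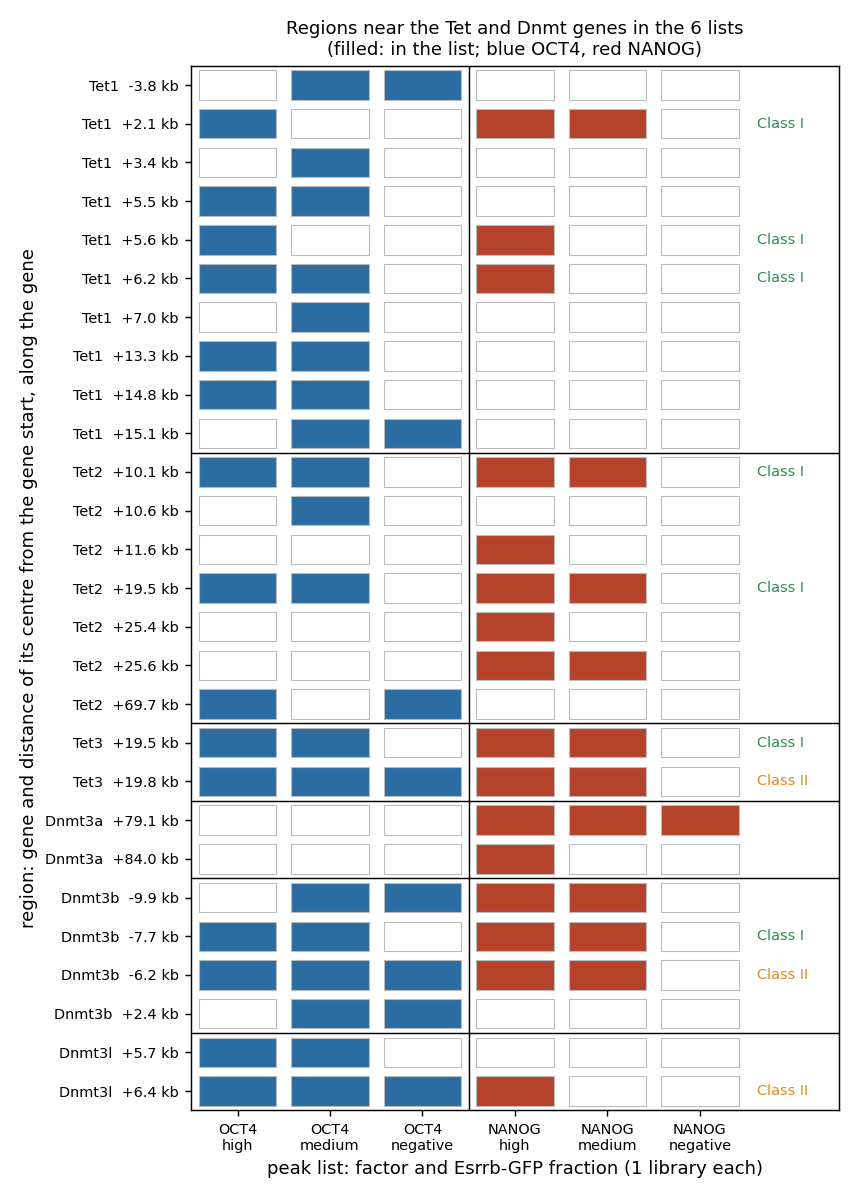
Each row is 1 of the 27 regions, named by its gene and by the distance in kb of its centre from the gene start along the gene, and each column is 1 of the 6 peak lists; a filled box marks presence, blue for OCT4 and red for NANOG. The NANOG negative column has 1 filled box, at *Dnmt3a*, while the OCT4 negative column has 8, of which 2 are at *Tet1* and 3 at *Dnmt3b*.

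Regions with both factors in high cells are those on which the comparison of fractions turns, and their sequences are shown so that they can be set beside their binding. All are on the plus strand of mm9, from 5′ to 3′, in lower case. Capitals mark a match to 1 of 4 short motifs, described with the motif counts. The Class I regions of *Tet2* and *Tet1* were as follows.
Tet2 Class I, intron 1, 10.1 kb into the gene, chr3:133197152-133197291: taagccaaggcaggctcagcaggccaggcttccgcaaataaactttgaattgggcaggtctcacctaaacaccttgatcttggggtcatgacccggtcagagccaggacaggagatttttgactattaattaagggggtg
Tet2 Class I, intron 1, 19.5 kb into the gene, chr3:133187832-133187891: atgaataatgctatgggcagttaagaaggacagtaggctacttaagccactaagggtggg
Tet1 Class I, intron 1, 2.12 kb into the gene (capitals: ESRRB motif), chr10:62359652-62359851: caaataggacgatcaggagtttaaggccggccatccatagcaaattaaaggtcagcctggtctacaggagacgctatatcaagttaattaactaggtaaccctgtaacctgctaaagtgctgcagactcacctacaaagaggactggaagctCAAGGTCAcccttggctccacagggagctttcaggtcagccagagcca
Tet1 Class I, intron 1, 5.63 kb into the gene, chr10:62356192-62356271: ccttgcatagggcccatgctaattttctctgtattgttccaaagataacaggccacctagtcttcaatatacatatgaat
Tet1 Class I, intron 1, 6.17 kb into the gene, chr10:62355572-62355831: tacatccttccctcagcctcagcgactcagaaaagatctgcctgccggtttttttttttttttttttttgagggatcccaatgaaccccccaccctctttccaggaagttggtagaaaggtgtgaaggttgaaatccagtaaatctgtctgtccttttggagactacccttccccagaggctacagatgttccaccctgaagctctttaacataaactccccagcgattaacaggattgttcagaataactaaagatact

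*Tet3* and *Dnmt3b* each had a Class I region next to a Class II region, and these pairs are shown because their members differed in OCT4 in Esrrb-GFP negative cells. Of the 320 bp *Tet3* Class II region, the central 300 bp are printed.
Tet3 Class I, intron 2 (capitals: KLF motif), chr6:83372052-83372271: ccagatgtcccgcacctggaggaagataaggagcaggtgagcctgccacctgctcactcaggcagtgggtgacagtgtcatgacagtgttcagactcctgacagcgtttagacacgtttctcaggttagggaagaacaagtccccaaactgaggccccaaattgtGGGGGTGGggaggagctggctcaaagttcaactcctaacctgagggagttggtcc
Tet3 Class II, intron 2, chr6:83371722-83372021: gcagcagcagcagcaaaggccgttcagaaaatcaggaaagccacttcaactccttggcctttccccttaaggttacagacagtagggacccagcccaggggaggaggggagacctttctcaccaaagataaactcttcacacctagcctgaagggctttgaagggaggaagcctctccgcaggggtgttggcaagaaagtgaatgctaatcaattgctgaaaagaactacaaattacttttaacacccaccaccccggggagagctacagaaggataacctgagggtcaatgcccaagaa
Dnmt3b Class I, upstream, chr2:153467412-153467631: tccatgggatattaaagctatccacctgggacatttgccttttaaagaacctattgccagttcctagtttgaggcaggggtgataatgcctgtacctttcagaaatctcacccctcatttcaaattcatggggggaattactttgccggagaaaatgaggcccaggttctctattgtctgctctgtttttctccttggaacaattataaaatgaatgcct
Dnmt3b Class II, upstream, chr2:153468892-153469151: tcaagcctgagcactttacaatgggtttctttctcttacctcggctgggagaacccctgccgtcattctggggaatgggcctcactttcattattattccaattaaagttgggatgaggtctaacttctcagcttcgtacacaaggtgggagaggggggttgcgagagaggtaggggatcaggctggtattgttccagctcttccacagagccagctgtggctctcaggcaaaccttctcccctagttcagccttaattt

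The Class II region of *Dnmt3l* is the last of these 10. The *Dnmt3a* region, which had no OCT4, is added because it was listed for NANOG in all 3 fractions.
Dnmt3l Class II, intron 2, chr10:77511012-77511231: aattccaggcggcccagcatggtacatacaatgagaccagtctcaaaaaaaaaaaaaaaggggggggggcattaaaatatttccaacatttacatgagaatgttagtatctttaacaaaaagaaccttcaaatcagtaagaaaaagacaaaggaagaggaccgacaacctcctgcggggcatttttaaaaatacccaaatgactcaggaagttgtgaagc
Dnmt3a, NANOG in all fractions, intron 6, chr12:3885112-3885151: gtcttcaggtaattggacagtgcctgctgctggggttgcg

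*Tet1* (ENSMUSG00000047146, minus strand of chromosome 10, 62267318 to 62361866, mm9) carried the most regions of the 7 genes. TET1 is a main TET enzyme of ESCs. Its 10 regions amounted to 7.43 per 100 kb of the gene and its flanks, and 99.5% of coding genes had fewer regions, or 97.9% a lower density. OCT4 was listed at 6 of them in high, 8 in medium and 2 in negative cells. NANOG was listed at 3, 1 and 0 in the same order. All 10 were bound by OCT4 in some fraction, against 77% of all regions. By OCT4 only, 7 were bound, or 70% (39.7 to 89.2%), against 59.3%.

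None of the 6 *Tet1* regions bound by OCT4 in Esrrb-GFP high cells was kept in negative cells, with an interval of 0 to 39%, while 54.9% of all OCT4 regions of high cells were kept. The 2 OCT4 regions that *Tet1* had in negative cells were both absent from the high list and present in the medium list. These were chr10:62365632-62365771, 3835 bp upstream of the gene start, and chr10:62346732-62346831, 15085 bp inside the gene. Both held the octamer ATGCAAAT, read on the opposite strand. As listed, the OCT4 regions of *Tet1* in high and in negative cells thus had no region in common, and medium cells had 4 of the first set and both of the second. This rests on how regions are called and split. In the study's average profiles, OCT4 regions listed in negative but not in high cells already had some OCT4 signal in high cells. The region 15085 bp inside the gene is 160 bp from chr10:62346992-62347131, which had OCT4 in high and medium cells. With regions within 500 bp joined they became 1 region with OCT4 in all 3 fractions, and 1 of 4 joined *Tet1* regions was kept in negative cells, or 25%, against 57.4% of all joined regions.

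The 3 Class I regions of *Tet1* all lay in intron 1. The nearest to the gene start, chr10:62359652-62359851 with its centre 2115 bp inside, had OCT4 in high cells only, and NANOG in high and medium cells. The ESRRB motif CAAGGTCA lay in it at positions 62359804 to 62359811. The region at chr10:62355572-62355831, 6165 bp inside, had OCT4 in high and medium cells and NANOG in high cells only. The last, chr10:62356192-62356271 at 5635 bp, had both factors in high cells and in no other fraction. This was the region that overlapped the U6 gene, a family with many similar copies in the genome, and the part of such copies in this call was not tested.

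The remaining 5 *Tet1* regions were bound by OCT4 alone and were absent from the negative list. Of these, the regions at 5515, 13295 and 14805 bp inside the gene were bound in high and medium cells. The regions at 3375 and 7025 bp were bound in medium cells only. Every *Tet1* region with NANOG also had OCT4 in some fraction, while 23% of all regions had NANOG and never OCT4.

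*Tet2* (ENSMUSG00000040943, minus strand of chromosome 3, 133126643 to 133207354) had 7 regions, a count above that of 98.4% of coding genes. Their density of 5.8 per 100 kb exceeded that of 95.9%. TET2, unlike TET1, lacks a CXXC domain of its own. OCT4 was listed at 3 *Tet2* regions in high, 3 in medium and 1 in negative cells. NANOG was listed at 5, 3 and 0 in the same order. At *Tet2*, 3 of 7 regions were bound by NANOG and never by OCT4, or 42.9% (15.8 to 75%). *Tet1* had 0 of 10 such regions (0 to 27.8%). The share over all regions was 23%, which lies within both intervals. With these few regions the difference was not tested.

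The Class I pair of *Tet2*, chr3:133197152-133197291 and chr3:133187832-133187891, had the same profile. Both factors were bound at each in high and in medium cells and neither in negative cells. They lay 10133 and 19493 bp inside the gene in intron 1. NANOG alone was found at chr3:133181692-133181891 in high and medium cells, and in high cells only at chr3:133181912-133182051 and chr3:133195692-133195771. OCT4 was found in medium cells only at chr3:133196712-133196771. The OCT4 region that *Tet2* had in negative cells was the 40 bp chr3:133137592-133137631 in intron 7, 69743 bp inside the gene. It was also listed in high cells but not in medium cells, an order of fractions seen at 4.71% of all regions.

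*Tet3* (ENSMUSG00000034832, minus strand of chromosome 6, 83312367 to 83391672) had 2 regions, both in intron 2 and 20 bp apart. TET3 is the TET enzyme of the oocyte and zygote. Both were bound by OCT4 and by NANOG in high and in medium cells. In negative cells the region chr6:83371712-83372031 kept OCT4 and was Class II, while its neighbour chr6:83372052-83372271 did not and was Class I. Such a split is common at this spacing. Of 152 pairs of regions 20 bp apart with OCT4 at both in high cells, 67 differed in OCT4 in negative cells, or 44.1% (36.4 to 52.0%). With regions within 500 bp joined, the *Tet3* pair counted as 1 Class II region.

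**Figure D2:**
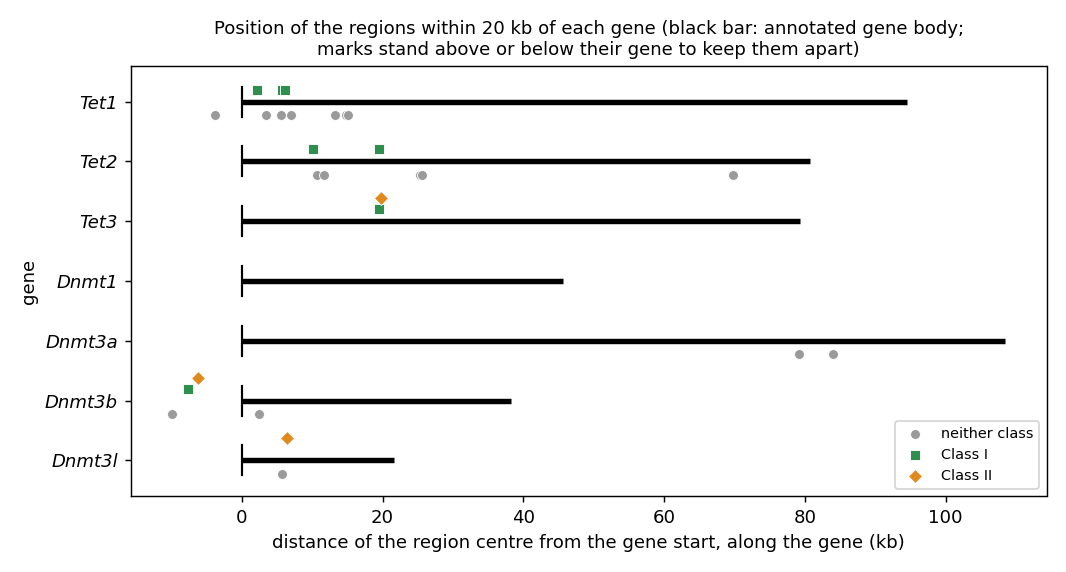
The 27 regions are placed by the distance of their centre from the gene start in kb, read along each gene, with the gene body as a black bar; green squares are Class I, orange diamonds Class II and grey circles neither. Of the 10 *Tet1* regions, 9 lie 2115 to 15085 bp inside the gene, 3 of the 4 *Dnmt3b* regions lie upstream, and *Dnmt1* has none.

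*Dnmt1* (ENSMUSG00000004099, minus strand of chromosome 9, 20711650 to 20757317), the maintenance methyltransferase, had no region of either factor in any fraction within 20 kb. The nearest lay 22759 bp from the gene body, had OCT4 in medium and negative cells, and was 3728 bp from *Ppan*. The next lay 26435 bp away and was a Class I region, 2515 bp from *S1pr2*. Within 50 kb of *Dnmt1* there were 5 regions, and each was closer to another coding gene.

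*Dnmt3a* (ENSMUSG00000020661, plus strand of chromosome 12, 3806007 to 3914443) had 2 regions, both in intron 6 and both bound by NANOG and by OCT4 in no fraction. The other 5 genes with regions all had OCT4 regions. Over the series, 23% of regions were bound by NANOG and never by OCT4. The 40 bp region chr12:3885112-3885151 was bound by NANOG in high, medium and negative cells. Of all 23767 regions, 154 had NANOG in all 3 fractions, or 0.648%. The study reports reduced NANOG signal, on average, at the regions still listed in negative cells. The level at this region cannot be read from the lists. The centre of the 40 bp region was 318 bp upstream of the start of an annotated internal transcript of the gene, Dnmt3a-010, at position 3885449. *Dnmt3a* is known for an internal promoter that gives DNMT3A2, the short isoform that predominates in ESCs, but whether this transcript is that isoform was not examined. The other region, chr12:3889832-3890151, was bound in high cells only. Its centre was 1737 bp upstream of another internal start, that of Dnmt3a-005 at position 3891728. The gene has 18 annotated transcript starts.

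*Dnmt3b* (ENSMUSG00000027478, plus strand of chromosome 2, 153475186 to 153513466) had 4 regions, at 5.11 per 100 kb, and 93.1% of coding genes had fewer. OCT4 was listed at 2 regions in high, 4 in medium and 3 in negative cells. NANOG was listed at 3, 3 and 0 in the same order. It was the one gene of the 7 with more OCT4 regions in negative than in high cells, a difference of a single region.

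Upstream of *Dnmt3b*, 3 regions followed each other towards the gene. The farthest, chr2:153465232-153465371 at 9885 bp, had NANOG in high and medium cells and OCT4 in medium and negative cells. This combination was found at 75 of all regions, or 0.316%. The next, chr2:153467412-153467631 at 7665 bp, was Class I, with both factors in high and medium cells. The nearest, chr2:153468892-153469151 at 6165 bp, was Class II, with both factors in high and medium cells and OCT4 in negative cells. These regions also lie within 20 kb of *Commd7*, which is 6715 bp from the farthest, and of 7530422B04Rik, so they cannot be assigned to *Dnmt3b* from position alone. The fourth, chr2:153477452-153477671 in intron 2, had OCT4 in medium and negative cells and no NANOG.

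*Dnmt3l* (ENSMUSG00000000730, plus strand of chromosome 10, 77504692 to 77526367) had 2 regions in intron 2, 540 bp apart. The region chr10:77511012-77511231 was Class II, with OCT4 in all 3 fractions and NANOG in high cells only. Its centre lay 1466 bp upstream of the start of the transcript Dnmt3l-003, and *Aire* was 4657 bp away. The other, chr10:77510412-77510471, had OCT4 in high and medium cells and no NANOG.

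**Figure D3:**
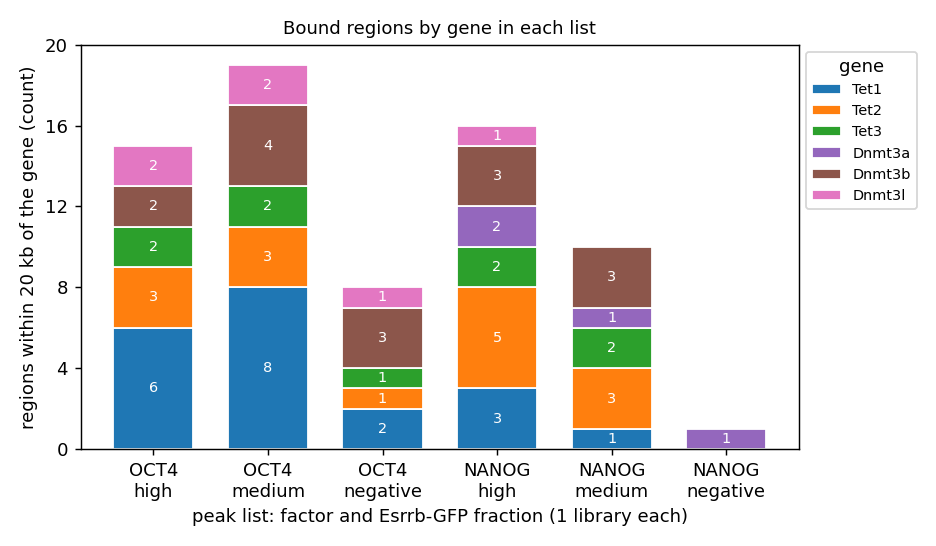
Stacked bars give the number of regions within 20 kb of each gene in each of the 6 lists, 1 library per bar, with the number for each gene printed in its block. From Esrrb-GFP high to negative cells the OCT4 total goes from 15 to 8 and the NANOG total from 16 to 1, while *Tet1* goes from 6 to 2 OCT4 regions and *Dnmt3b* from 2 to 3.

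Over the 7 genes together, high cells had 15 OCT4 and 16 NANOG regions, medium cells 19 and 10, and negative cells 8 and 1. Of the 15 OCT4 regions of high cells, 11 were lost in negative cells, or 73.3% (48.0 to 89.1%), against 45.1% of all OCT4 regions of high cells. The 3 *Tet* genes accounted for 9 of these, lost from 11 regions or 81.8% (52.3 to 94.9%), and the *Dnmt* genes for 2 lost from 4 or 50% (15.0 to 85.0%). The intervals of both families overlap. No gene but *Tet1* was left out in turn, and this was added after the data had been seen. *Tet1* had the lowest kept share of the genes with OCT4 regions in high cells, 0 of 6. Leaving out *Tet1* thus had to raise the share. Without its regions 4 of 9 were kept, or 44.4% (18.9 to 73.3%), against 26.7% with them and 54.9% over all regions. The kept share was also 41.7% with regions within 500 bp joined, where it was 57.4% over all joined regions, and 40.9% within 50 kb of the genes, each over 1.5 times the 26.7%.

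In Esrrb-GFP medium cells, 3 of the 15 OCT4 regions of high cells were lost, or 20.0% (7.05 to 45.2%), close to the 21.3% of all regions. Of the 19 OCT4 regions of medium cells, 7 were not listed in high cells, or 36.8% (19.1 to 59.0%) against 32.3%. Of the 8 OCT4 regions of negative cells, 4 were not listed in high cells, or 50% (21.5 to 78.5%) against 34.1%. All 4 were also bound in medium cells, as were 2361 of the 3532 such regions of the series. They lay at *Tet1* and *Dnmt3b*, 2 at each.

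NANOG was lost in negative cells at 15 of its 16 regions of high cells, or 93.8% (71.7 to 98.9%), against 97.5% of all NANOG regions of high cells. The 1 kept was the 40 bp *Dnmt3a* region. In medium cells 6 of 16 were lost, or 37.5% (18.5 to 61.4%) against 52.3%. For NANOG the 7 genes thus stayed near the background in negative cells, with 286 NANOG regions left in that list in all.

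**Figure D4:**
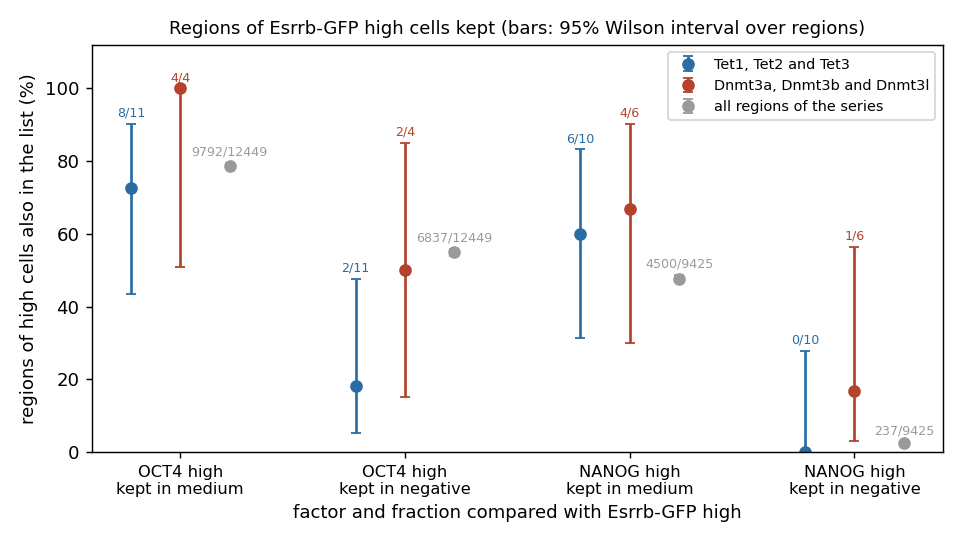
Points give the percentage of the regions of Esrrb-GFP high cells that were also in the medium or negative list, with 95% Wilson intervals over regions and the counts above them, for the *Tet* genes in blue, the *Dnmt* genes in red and all regions in grey. For OCT4 in negative cells, 2 of 11 *Tet* regions and 2 of 4 *Dnmt* regions were kept against 54.9% of all, and the intervals of both families overlap.

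Regions with both factors made up a larger share near these genes than over the series. Of the 15 OCT4 regions of high cells, 10 also had NANOG in high cells, or 66.7% (41.7 to 84.8%), against 29.5% of all. Of these 10 co-bound regions, 7 were Class I, or 70.0% (39.7 to 89.2%), against 55.3% of all co-bound regions, and 3 were Class II, or 30.0% (10.8 to 60.3%), against 42.6%. The *Tet* genes had 6 Class I regions among 7 co-bound, and the *Dnmt* genes 1 among 3. Since 3 of the 7 Class I regions are in 1 intron of *Tet1*, they are not separate observations.

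The regions near the 7 genes were wider than most, with a median of 140 bp (40 to 320 bp) against 80 bp over all regions. Class I or II regions, which are wider, made up 10 of the 27 and 3599 of the 23767. Among them the medians were 220 and 180 bp, and among the other regions 80 and 60 bp. The width of a merged region can grow with the libraries that called it, and it was not tested whether width had a part in the shares above. In the 201 bp around each centre the median GC content was 50.25% against 48.26%, and the median number of CpG dinucleotides was 2, as over all regions. The highest number of CpG was 8, at the *Tet1* region 13295 bp inside the gene. Of the 27 centres, 1 lay within 1 kb of a transcript start of a protein-coding gene, the 40 bp *Dnmt3a* region, which is 3.7% (0.657 to 18.3%) against 7.22% of all regions.

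Within the same 201 bp, exact matches on both strands were sought to the OCT4 octamer ATGCAAAT, the joint Oct-Sox motif TTGTNATGC, the ESRRB motif CAAGGTCA and the KLF motif GGGNGTGG, where N is any base. The octamer and the Oct-Sox motif can overlap. The octamer was found at 2 of the 27 regions, or 7.41%, against 7.88% of all regions and 1.35% of windows 10 kb downstream. Both were the *Tet1* regions that had OCT4 in medium and negative but not in high cells. The Oct-Sox motif was found at none, against 7.36% of all regions. The ESRRB motif was found at 1, or 3.7%, against 3.98%, and the KLF motif at 4, or 14.8%, against 11.9%. The ESRRB match was in a *Tet1* Class I region. A second ESRRB match lay in the 320 bp *Dnmt3a* region, beyond its central 201 bp. Of the KLF matches, those at the *Tet3* Class I region and the *Dnmt3b* region 9885 bp upstream were inside the region. The others lay across the end of a *Tet2* Class I region, and beyond the end of the *Tet1* region at 13295 bp. Together 7 of 27 regions held a match, or 25.9%, against 28.6% of all.

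Among the other genes of the pathway, 33 were examined, of which 25 had a region within 20 kb and 8 had none. Of all coding genes, 46.4% had one. Their 66 regions had OCT4 at 37 in high, 43 in medium and 20 in negative cells. NANOG was listed at 27, 10 and 1 in the same order. Of the 37 OCT4 regions of high cells, 14 were kept in negative cells, or 37.8% (24.1 to 53.9%), against 54.9% over all regions and 26.7% at the 7 genes. A few genes held many of these regions. *Zfp57* had 7 OCT4 regions in high and 1 in negative cells, *Usp7* 7 and 4, and *Dppa3* 5 and 2. The share without any of them was not computed. Class I regions lay near 5 of the 33 genes, against 6.97% of coding genes. *Uhrf1*, whose product recruits DNMT1 to replicating DNA, and its relative *Uhrf2* had 1 each, as did *Parp1*, which encodes a poly(ADP-ribose) polymerase of DNA repair. *Prdm14*, a repressor of the de novo enzymes in ESCs, had 2, and *Zfp57*, a zinc finger protein that keeps methylation at imprinted loci, had 4. Class II regions lay near *Usp7*, *Trim28* and *Dppa3*, 1 each, against 5.02% of coding genes. No gene of this list had both classes, which only 1.04% of coding genes had.

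By the 6 counts of regions per list, the coding gene most like *Tet1* was *Tln2*, with a summed absolute difference of 1 over the 6 lists, among 22372 genes compared. *Tln2* had 6, 8 and 2 OCT4 regions and 4, 1 and 0 NANOG regions in high, medium and negative cells. 1110012J17Rik followed with a difference of 2, and 5 genes shared a difference of 3.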

How the data were processed

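OCT4 and NANOG ChIP-Seq libraries, 1 per factor and sorted fraction, were grouped by the antibody and fraction in their labels. The authors aligned reads in GeneProf, called peaks with SISSRs and merged overlapping peaks; the submitters' processing notes name Bowtie and mm9. Per the labels and file contents, each deposited list holds genomic intervals (another kind of value, with no count or score), which were read as BED and are printed counted from 1. A start convention off by 1 bp would shift positions by 1 bp.

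The 51722 entries were reduced to 23767 distinct intervals, identical between lists. Genes came from GENCODE for mm9 (37310 genes). A region belonged to a gene within 20 kb of its body. Named genes are the 7 members, pathway genes with a Class I or Class II region, neighbours of member regions, and the genes most like *Tet1*. The members, lists and motifs were chosen with earlier results of these data known. *Ppan* and *S1pr2*, near *Dnmt1*, were named after their values were seen. Alternatives were other distances (5, 10 and 50 kb), distance to transcription starts, the closest gene only, joining within 500 bp, wide regions, identical intervals and other motif windows; leaving out *Tet1* was added after the data had been seen.

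Python 3.11.15, numpy 2.4.6, scipy 1.17.1, pysam 0.24.0, samtools 1.23.1 and matplotlib 3.10.9 were used. The functions were tested on simulated data, and 13 of 13 known answers were recovered.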

Additional observations from a re-analysis of the deposited data

How the results depend on the processing

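No paired analysis was possible because only 1 library was made per factor and fraction. Of 53 combinations of a result and an alternative, 47 stayed within 1.5 times a count or within the interval of a share, and 6 did not. The identical-interval alternative could not move a result, since the intervals are identical between lists. For shares the limit was wide. The OCT4 share kept in negative cells, 26.7%, had an interval of 10.9 to 52%, so 44.4% without *Tet1* counted as not moved. The share of NANOG regions kept in negative cells was 0 (0 of 14) when regions under the median width of 80 bp were left out, against 6.25%, since the region that was kept is 40 bp wide. Class II regions numbered 5 within 50 kb, against 3. Without *Tet1* there were 17 regions in place of 27 and 4 Class I regions in place of 7. With 50 bp either side of the centre, ESRRB matches went from 3.7% to 0% and KLF matches from 14.8% to 3.7%. Over the alternatives other than leaving out *Tet1*, the regions numbered 19 to 35, the OCT4 share kept in negative cells was 23.1 to 41.7%, and Class I regions numbered 5 to 8. The lists carry no depth or score, so how firmly a region was called or lost cannot be read from them, and small shares rest on few regions.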
